A study of Mus musculus with 16 samples.

Results

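Ribosome biogenesis factors are the proteins that transcribe, modify, cut and assemble ribosomal RNA. The genes described here were 37 listed nucleolar and ribosome assembly genes, chosen by name, out of 48158 genes in the deposited table. All 37 passed the filter on low values, as did 11790 genes in all. The rule used no measured value, but the list was drawn up with earlier results of these data known.

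Messenger RNA was measured by polyadenylated RNA sequencing in hepatocytes of FVB mice. One group of mice was fed normal chow and the other a diet with DDC (diethoxycarbonyl dihydrocollidine) for 4 weeks. DDC is a compound that blocks heme synthesis and injures hepatocytes and bile ducts. All cells of both diets were handled with cycloheximide, which freezes ribosomes on messages, and lysates were separated on sucrose gradients. Each diet gave 4 RNA pools: cytoplasm, monosomes (1 ribosome on a message), light polysomes (2 to 4 ribosomes) and heavy polysomes (more than 5). Each of the 8 groups of diet and pool held 2 libraries, 16 in all. The labels give no genotype change, age or sex, and they do not say that the libraries of a group came from separate animals. Each p-value rests on how far apart the libraries of a group lie, and in DDC that distance may be technical. The chow preparations differed in Y-linked genes and Xist, as given below, so the distance in chow is not technical alone.

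Ribosomes are built around a precursor RNA that RNA polymerase I transcribes in the nucleolus. Box C/D and box H/ACA particles, small nucleolar RNAs (snoRNAs) bound by core proteins, guide its methylation and pseudouridylation. The small subunit processome and later factors then cut and fold it into the 40S and 60S subunits. In liver the factors are known for rising with growth and regeneration, and MYC is a known activator of many of their genes.

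Levels are FPKM, sequenced fragments scaled to transcript length and library, summed over the transcripts of a gene, so levels of different genes can be compared per length. Differences were taken between log2(FPKM + 1) values and so understate the changes of low genes. They are given as log2 differences with a standard error (SE), and a gene was called at a Benjamini-Hochberg adjusted p under 0.05 from limma over all genes. Summed FPKM per library ran from 375145 to 1386166, and sequenced depth in reads is unknown. Across genes, replicates correlated at 0.95 to 0.985.

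The 4 chow libraries of preparation 1 stood apart from the others. Their 4 Y-linked genes (Ddx3y, Eif2s3y, Kdm5d and Uty) were all listed at 0 and Xist, the RNA of the inactive X chromosome, at 0.0394 to 2.44 FPKM. The other 12 libraries had summed Y-linked levels of 5.53 to 44.9 FPKM and Xist at 0. Counts are therefore also given without these 4 libraries. In that fit a lone chow library is assumed to vary like the other groups.

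Markers of macrophages, ducts and stellate cells rose with the diet in cytoplasm, and endothelial markers did not separate there. The summed level of 15 macrophage markers was 109 to 145 FPKM in chow cytoplasm and 785 to 1226 in DDC, and 314 to 522 against 5512 to 6617 on heavy polysomes. Of these markers 13 were called higher in cytoplasm and 15 on heavy polysomes. Summed ductal markers went from 48.1 to 57.2 FPKM in chow cytoplasm to 377 to 498 in DDC. Of 14 listed, 9 were tested and 7 called higher, with Epcam, Cldn4, Cldn7 and Cftr among those at 0 in chow. In DDC cytoplasm Epcam was at 1.6 and 0.919 FPKM, Krt19 at 0.242 and 0.227 and Krt7 at 0.318 and 0.103. The ductal sum thus came mainly from other markers of the list. Stellate markers went from 39.3 to 55.4 to 178 to 202, with 10 of 13 tested called higher, and Acta2 and Timp1 at 0 in chow. The sums of 11 endothelial markers overlapped in cytoplasm (52.8 and 49.6 FPKM in chow, 49.9 and 66.9 in DDC). In the 3 fractions they were higher in DDC, at 131 and 109 against 252 and 151 on heavy polysomes. Hepatocyte markers, 9 of 10 of which could be matched, were present in all libraries. Their summed level was 13666 and 18676 FPKM in chow cytoplasm against 17286 and 10653 in DDC, 14338 and 15889 against 7746 and 9751 on monosomes, and 13474 and 13671 against 6959 and 10419 on light polysomes. On heavy polysomes it was 35195 and 39590 against 18386 and 12817. These sums take in abundant markers listed at 0 in whole groups. Their order between the diets is therefore not read as a level of hepatocyte RNA. Serpina1c was at 0 in all 4 chow pools, Apoa1 in chow heavy polysomes and the 3 DDC fractions, and Ttr on chow light polysomes (0 and 0 against 4841 and 7795 FPKM in DDC). Apoa1 alone was at 5468 and 5916 FPKM on chow monosomes and at 10853 and 10975 on chow light polysomes. The part of these cells in each diet difference below was not tested. In bulk samples, fewer cells of a type and less RNA per cell cannot be told apart.

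The letters CACGTG, the E-box that MYC and its partner are known to bind, were found in 6 members between 250 bases before and 50 after their start. The windows below, from RefSeq on GRCm38.p6, are shown because the motif is that of a known activator of these genes. It was 1 of 3 sequence features counted, none with a test. Each is 30 bases, 5′ to 3′ on the gene's strand, with the motif in capitals.
Imp4 (chr1:34439696-34439725, plus strand, motif from 121 bases before the start): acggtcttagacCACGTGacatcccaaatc
Nop2 (chr6:125131811-125131840, plus strand, motif from 60 bases before the start): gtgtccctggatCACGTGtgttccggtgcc
Pes1 (chr11:3963965-3963994, plus strand, motif from 2 bases after the start): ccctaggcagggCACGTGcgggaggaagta
Wdr43 (chr17:71616220-71616249, plus strand, motif from 17 bases after the start): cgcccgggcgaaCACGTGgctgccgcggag
Tsr1 (chr11:74898092-74898121, plus strand, motif from 24 bases after the start): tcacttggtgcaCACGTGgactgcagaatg
Ltv1 (chr10:13193092-13193121, minus strand, motif from 28 bases after the start): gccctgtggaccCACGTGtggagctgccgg

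CACGTG reads the same on both strands. It was present for 6 of the 32 members matched to a RefSeq promoter (18.8%), against 8.09% of 27025 genes with a promoter of that length. Among 24 small-subunit ribosomal protein genes the share was 4.17%. GGGCGG or CCGCCC, the core letters of an SP1 box, stood in 71.9% of the matched members and in 38.2% of all genes. The share was 54.2% among the 24 ribosomal protein genes. A start with C followed by at least 4 pyrimidines, the form of the terminal oligopyrimidine messages, was found in 0 of 32 members, 3.01% of all genes and 29.2% of the ribosomal protein genes. That scan read only from the annotated start base, so 0 of 32 does not show that members lack such starts. Npm1, Fbl, Rrp12, Bop1 and Rrs1 had no matched promoter. The matches describe letters in a window and not binding. Among the 6 genes with CACGTG, Nop2 was called between the diets (higher on monosomes) and the others were not. Of all genes tested 21% were called higher on monosomes, and 14 of the 37 members were called in at least 1 pool. Whether the motif goes with the calls was not tested.

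Cytoplasmic RNA of DDC livers held more of a few snoRNP and assembly messages and less of a few others. Of the 37 members 4 were called higher (background 12.7% of all genes tested) and 3 lower (background 9.68%). The higher ones were Nhp2, Nop56, Noc2l and Nolc1, and the lower ones Nop10, Imp3 and Emg1. The median difference of the members was 0.34, against 0.01 over all genes, and 30 of 37 were positive. Members called higher made up a share near the background.

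On monosomes 7 members were called higher (background 21%) and 5 lower (background 15.9%), with a median of 0.13 against 0.04 over all genes. Light polysomes gave 3 higher (background 16.6%) and 4 lower (background 13.5%), with a median of -0.13 against 0.01. On heavy polysomes 0 were called higher (background 13.9%) and 3 lower (background 10.9%). Their median was 0.00 against 0.02, and 7 members had an unadjusted p under 0.05 by limma. Over the 4 pools 14 members were called at least once and 23 in no pool. The shares of all genes for these last counts are not given here, so the counts do not set the members apart. Ddx18 was called in both directions.

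**Figure D1:**
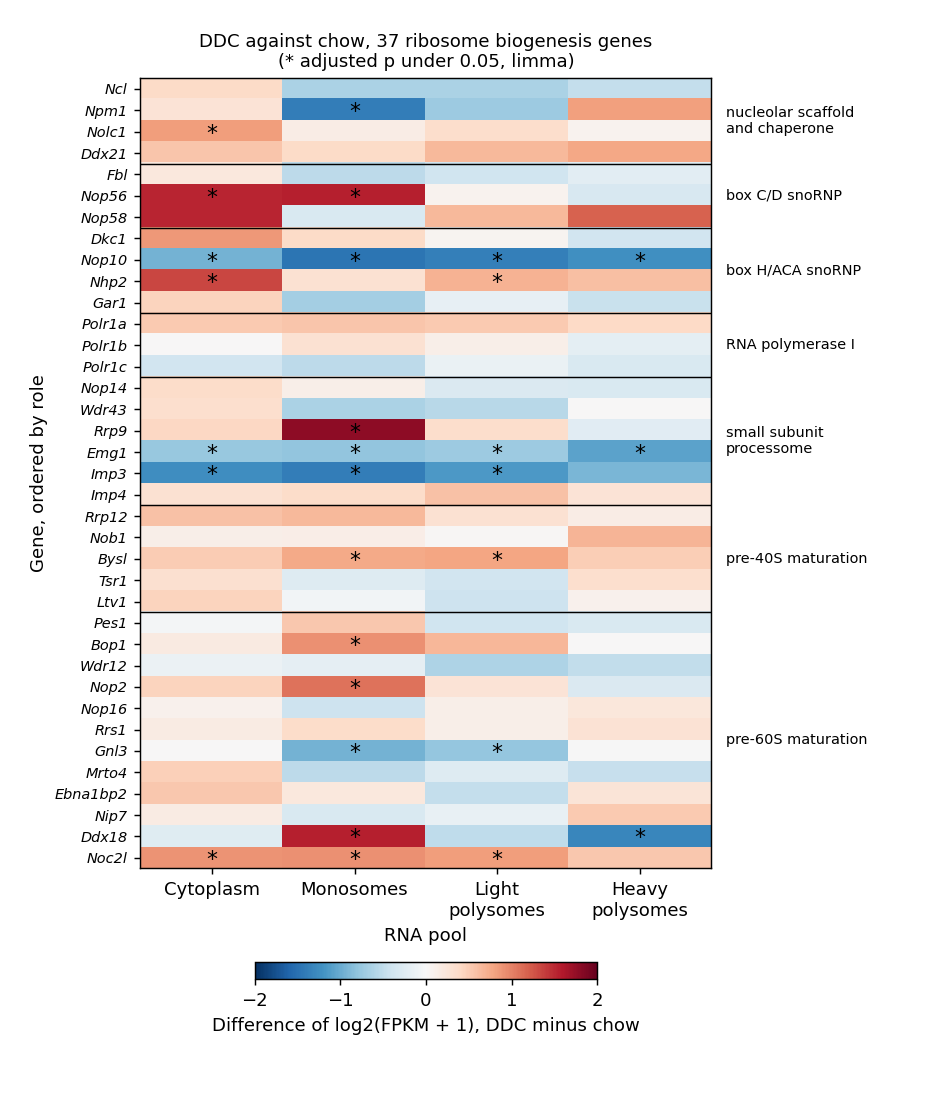
Differences of log2(FPKM + 1), DDC minus chow, for the 37 genes (rows, by role) in the 4 RNA pools (columns), with colour from -2 to 2 and stars at adjusted p under 0.05. Nop10 and Emg1 were lower in all 4 pools, whereas Nop56 was called higher in cytoplasm (1.52) and monosomes (1.55).

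Scaling each library to the same summed FPKM put the median of all genes between the diets at 0.18 to 0.28 over the 4 pools, so the members are given relative to it. On that scale the members' median stood above that of all genes by 0.37 in cytoplasm, 0.13 on monosomes and 0.11 on heavy polysomes, and by -0.07 on light polysomes. With equal sums 7 members were called higher in cytoplasm and 6 on heavy polysomes, and 1 lower on heavy polysomes. The split of calls between higher and lower thus depends on the scaling. The backgrounds above belong to the values before this scaling, and the shares of all genes called after it are not given here.

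The H/ACA core proteins Nop10 and Nhp2 moved in opposite directions, although both belong to the particle that turns uridine into pseudouridine. Nop10 (chr2:112261926-112263269, plus strand, a single annotated transcript of 64 codons) was at 21.8 and 29.7 FPKM in chow cytoplasm and at 13.7 and 11.8 in DDC. On monosomes its levels were 41.0 and 52.2 in chow against 14.3 and 18.2, and on light polysomes 142 and 150 against 51.6 and 61.4. On heavy polysomes they were 71.1 and 67.2 in chow against 35.5 and 23.4 in DDC. Every DDC library lay below both chow libraries of its pool. Its log2 differences were -0.94 (SE 0.25, adjusted p = 0.0188 by limma) in cytoplasm, -1.46 (SE 0.25, 0.000994) on monosomes, -1.36 (SE 0.25, 0.00195) on light and -1.23 (SE 0.25, 0.00393) on heavy polysomes. The monosome and light polysome calls held under all 16 alternatives tried for each. The cytoplasmic call ended without chow cytoplasmic replicate 2 (-0.73), DDC cytoplasmic replicate 1 (-1.04) or replicate 2 (-0.85). It also ended without the chow libraries of preparation 1 (-1.16). The heavy polysome call ended without the chow libraries of preparation 1 (-1.19). In a fit to the heavy polysome libraries alone that call ended too (-1.23, adjusted p = 0.0907 by limma).

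Nhp2 (chr11:51619735-51623714, plus strand) was at 20.4 and 21.1 FPKM in chow cytoplasm and 59.7 and 49.0 in DDC. Light polysomes held 122 and 119 in chow against 173 and 224 in DDC. Monosomes (81.0 and 88.2 against 105 and 103) and heavy polysomes (108 and 116 against 198 and 145) also had both DDC libraries above both chow ones. The log2 difference was 1.34 in cytoplasm (SE 0.21, adjusted p = 0.00124 by limma) and 0.70 on light polysomes (SE 0.21, 0.0281), and the other pools were not called. In cytoplasm the call was kept with any 1 library left out and ended when the 4 libraries of chow preparation 1 were left out (1.32, adjusted p = 0.0577). On light polysomes it ended without chow replicate 1 (0.107), chow replicate 2 (0.126) or DDC replicate 2 (0.159).

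Dkc1, the pseudouridine synthase itself and an X-linked gene, was low and varied between replicates. Its cytoplasmic levels were 5.01 and 3.49 FPKM in chow and 6.89 and 10.2 in DDC, a difference of 0.86 that was not called (adjusted p = 0.319 by limma). In the 3 gradient fractions it was at 0 to 3.35 FPKM in every library. Gar1, the fourth core protein, ranged from 8.72 to 40 FPKM over all libraries and was not called in any pool.

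**Figure D2:**
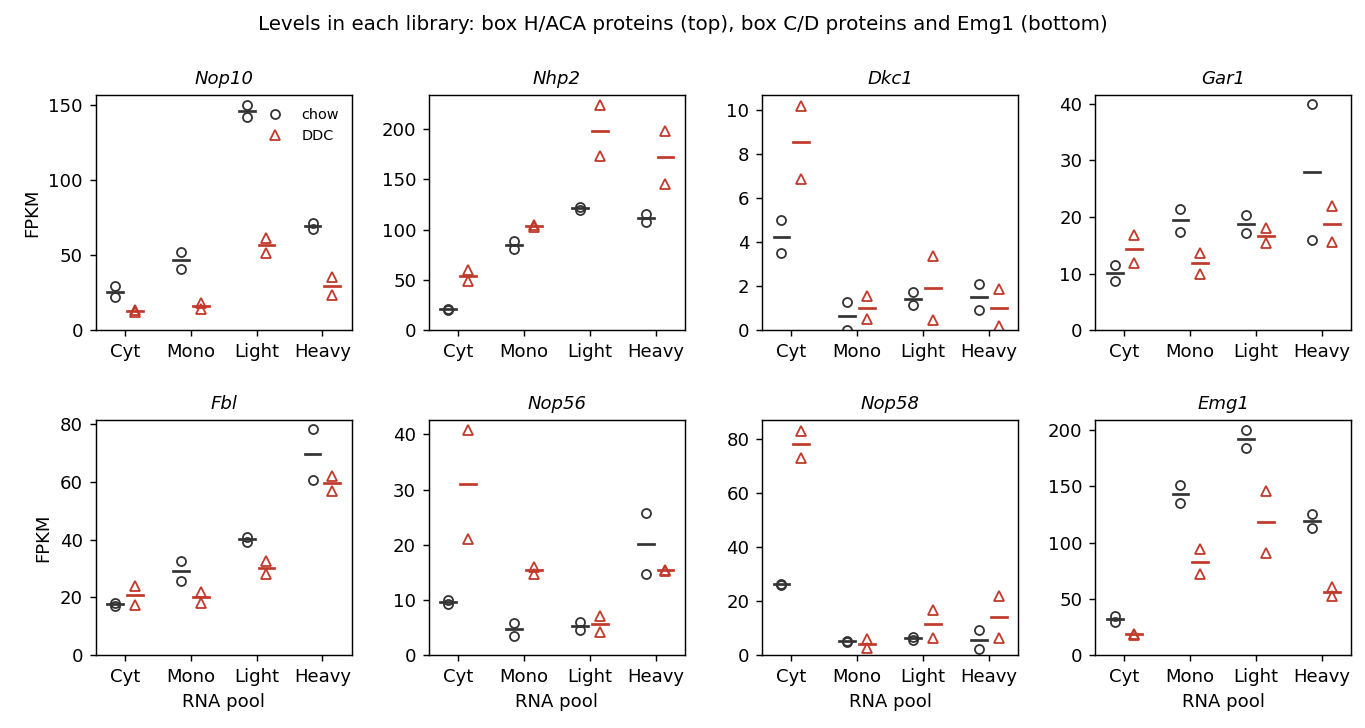
FPKM in each library for the 4 box H/ACA proteins, the 3 box C/D proteins and Emg1 in cytoplasm (Cyt), monosomes (Mono), light and heavy polysomes; open circles are chow libraries, triangles DDC libraries and lines group means. Nop10 lay lower in DDC in every pool and Nhp2 higher in cytoplasm, while Nop58 libraries of the 2 diets separated in cytoplasm (26.1 to 26.5 against 73.0 to 83.2).

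Of the box C/D proteins, Nop56 rose in cytoplasm and on monosomes. Nop56 (chr2:130274430-130279313, plus strand), a scaffold that bridges the particle, was at 9.31 and 9.94 FPKM in chow cytoplasm and 40.8 and 21.1 in DDC. Monosomes held 5.84 and 3.54 in chow against 16 and 14.7 in DDC. Its differences were 1.52 (SE 0.35, adjusted p = 0.0101 by limma) and 1.55 (SE 0.35, 0.00522). On light polysomes (5.97 and 4.59 against 4.27 and 7.12) and heavy polysomes (25.7 and 14.7 against 15.4 and 15.3) the diets overlapped. The monosome call ended without chow monosome replicate 2 (1.26, adjusted p = 0.0509) and the cytoplasmic one without either chow library (1.47 and 1.56, 0.0622 and 0.0543) or DDC replicate 1 (1.06, 0.114).

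Nop58 (chr1:59684971-59719044, plus strand), the partner of Nop56 in the particle, was at 26.5 and 26.1 FPKM in chow cytoplasm and 83.2 and 73.0 in DDC. That difference of 1.53 (SE 0.60) was not called in the fit to all 16 libraries (adjusted p = 0.0889 by limma), where the gene's spread in the fractions counts too. It was called in a fit to the 4 cytoplasmic libraries alone (adjusted p = 0.00564), an alternative added after seeing the data. The fraction levels of Nop58 were 2.23 to 21.8 FPKM, with the diets overlapping in each fraction. Fbl, the methyltransferase of the particle, was at 17.1 to 18.2 FPKM in chow and 17.5 to 24.1 in DDC cytoplasm, and was not called in any pool.

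Among nucleolar scaffolds, Npm1 was the most abundant member in the cytoplasm of both diets. Npm1 (chr11:33152287-33163206, minus strand), a histone and ribosomal protein chaperone, was at 86.5 and 87.7 FPKM in chow cytoplasm and 97.2 and 115 in DDC. On monosomes it was at 66.3 and 49.2 against 25.5 and 17.6, a difference of -1.39 (SE 0.36, adjusted p = 0.00972 by limma). Both DDC monosome libraries lay below both chow ones, and on heavy polysomes the order turned (26.5 and 34.6 in chow, 36.9 and 80.3 in DDC, 0.82, adjusted p = 0.114). The monosome call ended without chow monosome replicate 1 (-1.18, 0.062) or DDC monosome replicate 2 (-1.13, 0.0758), and with equal summed FPKM (-1.09, 0.0672).

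Nolc1, a snoRNP chaperone, was at 7.69 and 9.14 FPKM in chow cytoplasm and 18.5 and 13.4 in DDC (0.84, SE 0.26, adjusted p = 0.0403 by limma). This call was lost without any 1 of the 4 cytoplasmic libraries (adjusted p = 0.0638 to 0.271). Ncl, the abundant nucleolar RNA-binding protein nucleolin, was not called in any pool. It was at 37.7 and 43.7 FPKM in chow cytoplasm against 64.9 and 44.1, and at 62.7 and 61.7 on chow light polysomes against 40.4 and 38.7. The helicase gene Ddx21 had differences of 0.39 to 0.77 in the 4 pools, none called.

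The 3 RNA polymerase I genes were not called in any pool. Polr1a, the largest subunit, was at 2.49 and 2.7 FPKM in chow cytoplasm and 4.77 and 3.69 in DDC, with differences of 0.40 to 0.55 over the pools (adjusted p = 0.108 to 0.283 by limma). Its diets overlapped on heavy polysomes alone (2.88 and 1.99 against 4.32 and 2.81). Protein-coding transcripts made up 0% to 11.9% of these Polr1a levels, and were at 0.297 and 0.248 FPKM in chow cytoplasm against 0.234 and 0.319 in DDC. Most of the rest was annotated for nonsense-mediated decay (2.19 and 2.45 against 4.54 and 3.27 FPKM). Polr1b differed by -0.20 to 0.31 and Polr1c by -0.52 to -0.13.

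Of the small subunit processome, Emg1 and Imp3 fell and Rrp9 rose in 1 pool. Emg1 (chr6:124704085-124712178, minus strand), a pseudouridine methyltransferase of the small subunit RNA, was at 34.7 and 29.8 FPKM in chow cytoplasm and 18.2 and 19.0 in DDC. On monosomes it was at 135 and 151 against 71.9 and 93.9, on light polysomes at 200 and 184 against 146 and 90.5, and on heavy polysomes at 125 and 113 against 60.5 and 52.2. The DDC libraries were below the chow libraries in each pool. Its differences were -0.76 (SE 0.24, adjusted p = 0.0434 by limma), -0.79 (0.0245), -0.73 (0.0406) and -1.07 (0.00742) in that order of pools. All 4 calls ended with equal summed FPKM (-0.57, -0.49, -0.40 and -0.57, adjusted p = 0.154 to 0.313 by limma). The heavy polysome call also ended without the 4 chow libraries of preparation 1 and in a fit to the heavy polysome libraries alone. The cytoplasmic one was lost without any 1 library (adjusted p = 0.111 to 0.221). The monosome call was lost without either chow library (0.0526 and 0.119) or DDC replicate 1 (0.136), and the light polysome call without either chow library (0.171 and 0.114) or DDC replicate 2 (0.286).

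Imp3 (chr9:56937475-56938398, plus strand), a U3 snoRNP protein, was at 35.2 and 36.7 FPKM in chow cytoplasm and 16.6 and 13 in DDC. On monosomes it was at 63.2 and 76.7 against 36.9 and 18.5, and on light polysomes at 94.5 and 66.5 against 35.9 and 34.6. Heavy polysomes held 266 and 185 in chow against 151 and 91.4, the highest levels of the gene in each diet. In all 4 pools both DDC libraries lay below both chow ones, and the differences were called in cytoplasm (-1.24, SE 0.34, adjusted p = 0.0228 by limma), monosomes (-1.38, 0.0084) and light polysomes (-1.15, 0.025). The cytoplasmic call was lost without any 1 library (adjusted p = 0.0658 to 0.143). The monosome call was lost without chow or DDC replicate 2 (0.0587 and 0.0837), and the light polysome call without chow replicate 1 (0.17) or either DDC library (0.0785 and 0.0908), or with equal summed FPKM (-0.82, 0.0752). Its partner Imp4 differed by 0.28 to 0.59 and was not called.

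Rrp9, the U3-specific protein, was called higher on monosomes (1.79, SE 0.64, adjusted p = 0.0471 by limma) from 5.68 and 0 FPKM in chow and 6.22 and 10 in DDC. The value of 0 in chow monosome replicate 2 carried the call, and without that library the difference was 0.42 (adjusted p = 0.477). It also ended without either DDC library (0.0754 and 0.205). Wdr43, at 4.88 and 4.73 FPKM in chow cytoplasm and 6.87 and 5.83 in DDC, and Nop14 were not called in any pool.

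Of the pre-40S factors Bysl, which joins the late nucleolar precursor, was called higher on monosomes (0.76, SE 0.27, adjusted p = 0.0461 by limma) and light polysomes (0.79, 0.0448). Its light polysome levels were 4.74 and 3.21 FPKM in chow and 7.38 and 7.64 in DDC. The monosome call ended without chow replicate 1 (0.0835), chow replicate 2 (0.166) or DDC replicate 2 (0.273), and the light polysome call without any 1 library (0.0583 to 0.273). Rrp12, Nob1, Tsr1 and Ltv1 were not called in any pool, with differences of -0.42 to 0.68.

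Of the 12 pre-60S factors Noc2l, Bop1 and Nop2 were called higher, Gnl3 lower and Ddx18 in both directions. Noc2l (chr4:156236010-156247616, plus strand), an export factor of the large subunit, was at 7.53 and 7.98 FPKM in chow cytoplasm and 17.4 and 13.6 in DDC. Monosomes held 5.12 and 4.66 against 10.7 and 9.48, and light polysomes 6.97 and 4.63 against 9.74 and 12.2. It was called higher in these 3 pools (0.90, 0.91 and 0.83, adjusted p = 0.0284, 0.0173 and 0.0317 by limma). Heavy polysome levels were 18.2 and 12.6 against 19.1 and 26.6 (0.54, not called). The cytoplasmic call was lost without any 1 library (adjusted p = 0.0641 to 0.194). The monosome call was lost without chow replicate 2 (0.0813) or DDC replicate 1 (0.0767), and the light polysome call without chow replicate 2 (0.237) or either DDC library (0.0507 and 0.156).

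Bop1, a partner of Pes1 and Wdr12 in one assembly complex, was at 5.51 and 9.32 FPKM on chow monosomes and 17.2 and 12 on DDC monosomes (0.91, SE 0.27, adjusted p = 0.0199 by limma). Nop2, an RNA methyltransferase, was at 4.01 and 3.43 against 10.1 and 8.02 (1.09, SE 0.37, 0.0376). Gnl3, the GTPase nucleostemin, was called lower on monosomes (7.56 and 5.71 against 2.29 and 3.64, -0.95, 0.0134) and light polysomes (10.8 and 6.86 against 4.23 and 5.1, -0.77, 0.0421). The Bop1 and Gnl3 monosome calls each ended without chow replicate 1 (0.58 and -0.78, adjusted p = 0.152 and 0.0801) or DDC replicate 1 (0.67 and -0.71, 0.13 and 0.097), and that of Nop2 without any 1 library (0.0741 to 0.154). On light polysomes the Gnl3 call ended without chow replicate 1 (-0.48, 0.307) or either DDC library (0.173 and 0.0758). With equal summed FPKM both Gnl3 calls ended (-0.72 and -0.49, 0.063 and 0.22). Pes1, Wdr12, Nop16, Rrs1, Mrto4, Ebna1bp2 and Nip7 were not called in any pool.

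Ddx18 (chr1:121553835-121567989, minus strand), a helicase of the pre-60S particle, was called in opposite directions in 2 pools. On monosomes it was at 1.87 and 0.445 FPKM in chow and 5.27 and 4.77 in DDC (1.56, SE 0.37, adjusted p = 0.00609 by limma). On heavy polysomes it was at 12.8 and 15.5 in chow and 3.29 and 7.61 in DDC (-1.31, SE 0.37, 0.0208). Its cytoplasmic levels overlapped (6.29 and 4.35 against 4.05 and 4.47). The monosome call ended without chow monosome replicate 2 (1.07, adjusted p = 0.0649). The heavy polysome call ended without chow replicate 2 (-1.18) or DDC replicate 1 (-0.81), and with equal summed FPKM (-0.80, adjusted p = 0.192 by limma). It also ended without the 4 chow libraries of preparation 1 and in a fit to the heavy polysome libraries alone.

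Left out 1 at a time, single libraries ended many of these calls. Of the 4 higher and 3 lower cytoplasmic calls 1 to 2 and 0 to 1 were kept. Nhp2 was kept each time. On monosomes 1 to 4 of the 7 higher and 2 to 3 of the 5 lower calls were kept, the fewest higher ones without chow monosome replicate 2. On light polysomes 0 to 1 of 3 and 1 to 3 of 4 were kept, Nop10 each time, and on heavy polysomes 2 to 3 of 3. Without the 4 chow libraries of preparation 1 the counts of higher and lower members were 0 and 0 in cytoplasm, 4 and 2 on monosomes, 0 and 1 on light polysomes, and 0 lower on heavy polysomes.

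Many members had higher FPKM on heavy polysomes than on monosomes in each diet. FPKM are scaled within a library, so they do not show what share of a message sat in a fraction. Of the 37 members 20 were called higher on heavy polysomes than on monosomes in chow (background 23.7%) and 1 lower (background 21.1%). In DDC 18 were called higher (background 18.2%) and 0 lower (background 14.5%), with 23 at an unadjusted p under 0.05 by limma. The median difference was 0.80 in each diet, against 0.00 over all genes, and 12 members were called higher in both diets. Shares of all genes for the unadjusted p and for calls in both diets are not given here. Among genes with at least 5 FPKM in 2 libraries the median of all genes was 0.28 in chow and 0.21 in DDC. The members' median stood above it by 0.51 and 0.76. With equal summed FPKM the median of all genes fell to -0.36 in chow and -0.37 in DDC, and the members' median stood above it by 0.57 and 0.70. In that scaling 12 and 9 members were called higher, and the backgrounds above do not apply to these counts.

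By preparation, 26 and 27 of 37 members had their highest fraction level on heavy polysomes in chow, and 24 and 32 in DDC. The share over all genes was 38.9% to 41.1%. Heavy polysomes held the highest level in all 4 preparations for 19 of 37 members, against 20.3% of 11370 genes. Nop10 was highest on light polysomes in all 4 preparations, the only member to be so, and 0 members were highest on monosomes in all 4, against 11.2% of all genes.

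The calls were spread over the roles, to be read against the 23.7% (chow) and 18.2% (DDC) of all genes called higher. Pre-60S factors were called higher on heavy polysomes for 9 of 12 in chow and 8 of 12 in DDC. The small subunit processome gave 4 and 3 of 6, the pre-40S factors 2 and 2 of 5, the scaffolds 2 and 2 of 4, the box C/D proteins 2 and 1 of 3, the box H/ACA proteins 0 and 2 of 4 and RNA polymerase I 1 and 0 of 3. These counts are descriptions of small groups, and differences between roles were not tested.

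Nop16 (chr13:54584185-54590090, minus strand), a 60S assembly protein of 178 codons, had the lowest p of the members in both diets. It was at 15.3 and 15.2 FPKM on chow monosomes and 72.1 and 68.0 on chow heavy polysomes, a difference of 2.13 (SE 0.20, adjusted p = 1.43e-05 by limma). In DDC it was at 12 and 10.6 against 88.8 and 76.1 (2.76, SE 0.20, 3.23e-05). Ebna1bp2, a nucleolar scaffold of the 60S precursor, was at 4.98 and 3.63 against 25.8 and 21.4 in chow (2.22, SE 0.28, 7.6e-05). In DDC it was at 3.46 and 7.24 against 26.7 and 29.8 (2.27, SE 0.28, 0.000156). Both calls of both genes held under all 15 alternatives tried for each.

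Imp3 was higher on heavy polysomes by 1.66 in chow (adjusted p = 0.00206 by limma) and 2.13 in DDC (0.000798), and Bop1 by 2.31 (4.92e-05) and 1.41 (0.00212). Fbl rose from 25.8 and 32.7 FPKM on chow monosomes to 78.5 and 60.8 on heavy polysomes, and from 22.0 and 18.1 to 57.0 and 61.9 in DDC (1.22 and 1.53). At the other end, Wdr43 was the 1 member called lower on heavy polysomes. It went from 3.22 and 4.59 FPKM on monosomes to 1.35 and 1.91 in chow (-0.89, SE 0.25, 0.0126), and its DDC difference of -0.25 was not called (0.474). Emg1 differed by -0.26 and -0.54 and Polr1a by 0.01 and -0.14, none called.

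**Figure D3:**
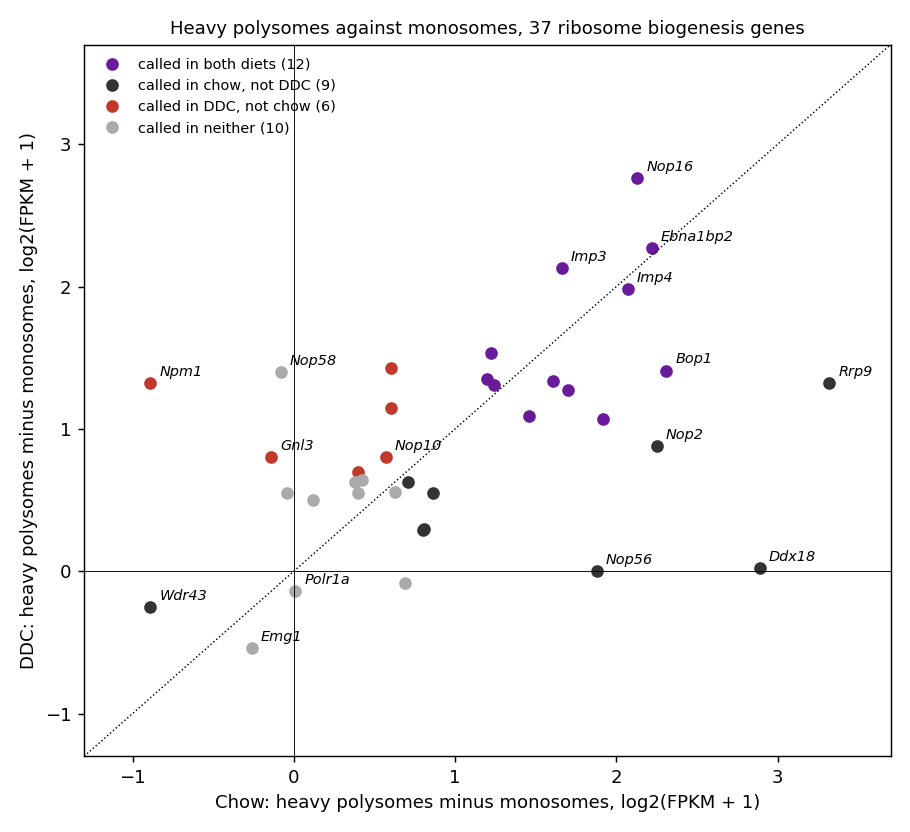
Heavy polysomes minus monosomes in log2(FPKM + 1), chow on the horizontal and DDC on the vertical axis, 1 point per gene, coloured by call, with a dotted line of equality. Nop16 and Ebna1bp2 lie far up in both diets, whereas Ddx18 (2.89 and 0.02) and Npm1 (-0.89 and 1.32) lie far from the line.

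Coding length bore little relation to placement in chow. It was taken from the coding transcript of a gene with the highest FPKM, which may fall short of the full coding sequence. For Nop58 that transcript was 638 bases long and coding throughout (212 codons), and for Nop56 it held 296 codons. Across the 37 members, which share libraries and are not independent replicates, Pearson's r between coding length and the heavy against monosome difference was 0.04 in chow and -0.37 in DDC (Spearman's rho 0.08 and -0.41). Across 10824 and 10823 protein-coding genes r was -0.06 and -0.15. Among the members, Nop16 and Imp3 (178 and 184 codons) were higher on heavy polysomes, and Emg1 with 244 codons was not.

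The diets differed in the placement of 2 members. In the difference between diets of heavy polysomes against monosomes 1 member was called higher in DDC (background 0.996%) and 1 lower (background 0.902%). An unadjusted p under 0.05 by limma was found for 10 members, and the share of all genes at that level is not given here. Npm1 was lower on heavy polysomes than on monosomes in chow by 0.89 on the log2 scale (-0.89, adjusted p = 0.0595) and higher in DDC (1.32, 0.0139), a difference of 2.21 (SE 0.50, 0.0488). Ddx18 was higher on heavy polysomes in chow (2.89) and level in DDC (0.02), a difference of -2.88 (SE 0.52, 0.0232). Nop56 (1.88 and 0.00) and Rrp9 (3.32 and 1.32) were called on heavy polysomes in chow and not in DDC, but their differences between the diets (-1.88 and -2) were not called (adjusted p = 0.07 and 0.243).

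The Npm1 result lay at the threshold and ended in 13 of 19 alternatives (adjusted p = 0.0259 to 0.265), among them the fit that leaves out chow preparation 1 (1.81, 0.265). The Ddx18 result ended in 4 of 19. These were the fits without chow monosome replicate 2 (-2.38, adjusted p = 0.0663), without chow heavy polysome replicate 2 (-2.74, 0.0502), without the 4 libraries (-3.50, 0.0536), and on protein-coding transcripts alone (-1.15, 0.184). For heavy polysomes against cytoplasm 0 members were called higher (background 0.0596%) and 0 lower (background 0.0426%) by limma. At an unadjusted p under 0.05 by limma there were 4, again without a share of all genes given here. Their median difference was -0.31 against -0.02 over all genes, and 28 of 37 were negative.

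For several members the gene sum was made up of transcripts that are not annotated as protein-coding. The median share of FPKM in protein-coding transcripts was 99.2% to 100% in each library, but 3 to 6 members were below 50% in both libraries of a group. Ncl held 4.14% to 22.0% in protein-coding transcripts, and nearly all else in retained-intron transcripts. Gar1 was below 50% in both libraries of every group but DDC cytoplasm. For 7 of the 37 members the gene body also holds annotated snoRNAs, 21 in all, with 5 in Nop56, 4 in Nop58 and 3 each in Ncl, Gnl3 and Wdr43.

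Ddx18 on heavy polysomes illustrated this. Its retained-intron transcripts were at 9.59 and 11.9 FPKM in chow and 0 and 2.24 in DDC, whereas its protein-coding ones were at 3.2 and 3.58 against 3.29 and 4.61. With protein-coding transcripts alone the heavy polysome difference was 0.16 (adjusted p = 0.772 by limma), while the monosome difference stayed at 1.31 (0.00871). Nop56 on chow heavy polysomes held 17.5 and 13.3 FPKM of retained-intron transcripts beside 8.18 and 1.37 of protein-coding ones. For Nop56, coding transcripts alone gave 2.68 (adjusted p = 0.00686 by limma) on monosomes and 1.78 (0.0678) in cytoplasm. On monosomes they were at 2.25 and 0 FPKM in chow against 13.1 and 8.48 in DDC. Coding levels of Nop58, Dkc1, Rrp9 and Gar1 were also at 0 in chow monosome replicate 2.

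For Nop58 both main classes had higher DDC than chow levels in both cytoplasmic libraries, though the coding class was not called and the other was not tested alone. Protein-coding transcripts were at 13.8 and 13.9 FPKM in chow and 38.2 and 35.0 in DDC (1.34, adjusted p = 0.0914 by limma). Those annotated for nonsense-mediated decay were at 12.4 and 12 against 44.9 and 37.8. Ebna1bp2 was called higher on coding transcripts in cytoplasm (5.35 and 6.92 against 15.8 and 17.0 FPKM, 1.29, 0.00747) and on heavy polysomes (9.24 and 11.8 against 25.3 and 22.8, 1.13, 0.0127), where its gene sums were not called. How the authors' software shared reads between overlapping transcripts is not given in the sources used here.

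**Figure D4:**
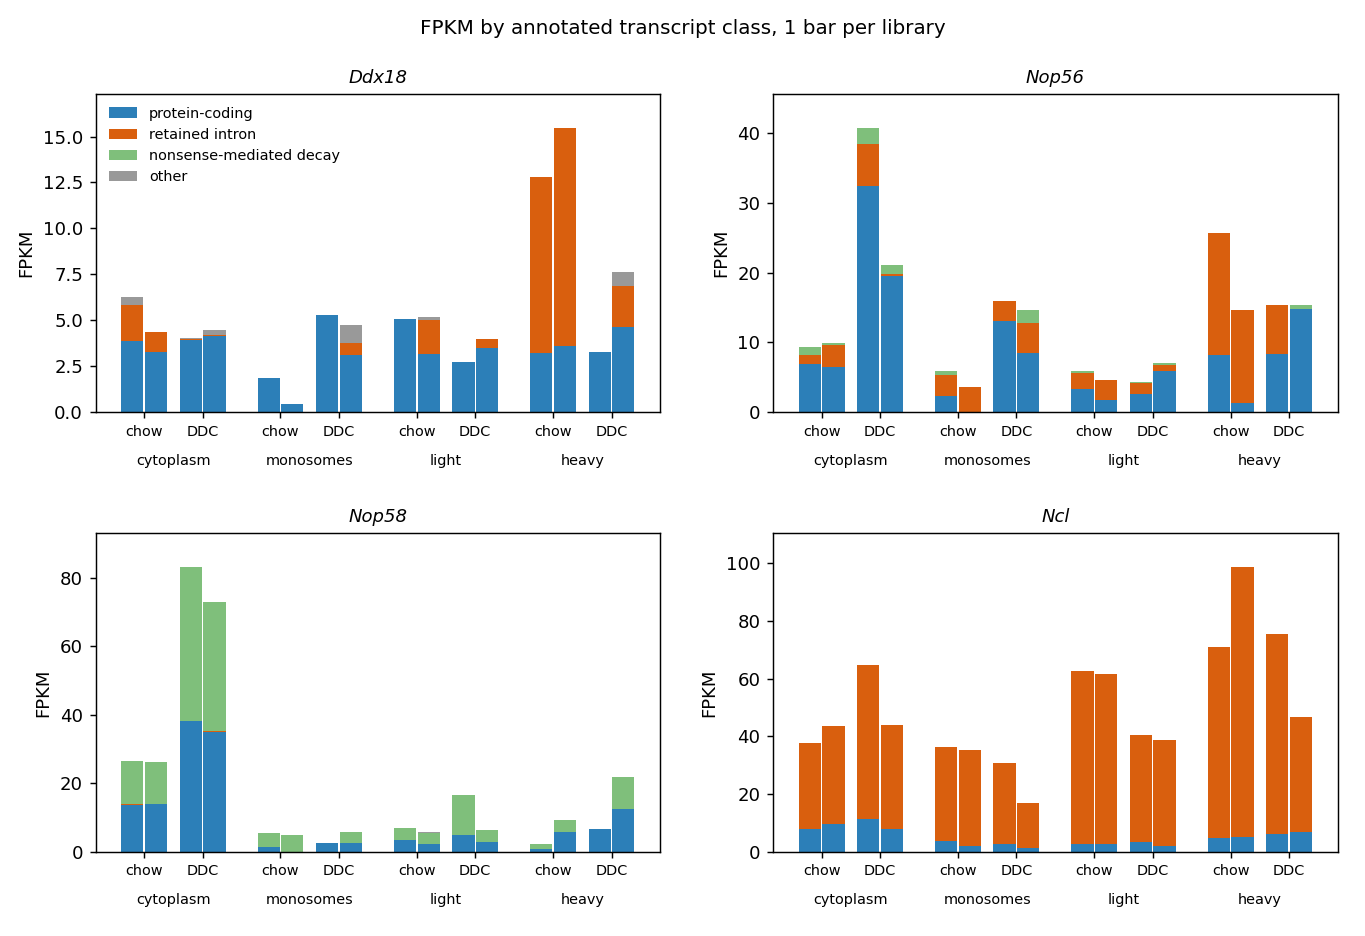
FPKM by annotated transcript class, stacked, 1 bar per library (replicate 1 left, replicate 2 right), for Ddx18, Nop56, Nop58 and Ncl in the 4 pools of each diet. The high chow bars of Ddx18 on heavy polysomes are mainly retained-intron transcripts (9.59 and 11.9 FPKM), and Ncl is mainly of that class in every library.

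Several members overlap a gene on the other strand, Emg1 with Lpcat3 over 334 bases, Bysl with Ccnd3 over 361 and Tsr1 with Srr over 2984. The library kit keeps strand, but whether counting used it is not given, so levels of such pairs may share reads.

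The other genes of the pathway were taken from lists of known factors that are not members. In cytoplasm (background 12.7% higher and 9.68% lower) 4 of 50 further pre-60S factors were called higher and 1 lower, 0 of 41 small subunit processome factors either way, and 1 and 1 of 15 exosome genes. On monosomes (background 21% and 15.9%) the counts of higher and lower were 5 and 11 for the pre-60S list, 3 and 3 for the processome list, and 3 and 5 of 17 for further RNA polymerase I factors. Light polysomes (background 16.6% and 13.5%) gave 5 and 7 for the pre-60S list, 1 and 9 for the processome list and 2 and 2 for RNA polymerase I. On heavy polysomes (background 13.9% and 10.9%) the pre-60S list gave 1 and 2, the processome list 0 and 3 and RNA polymerase I 2 and 2. Eif6, which keeps the subunits apart until the 60S is mature, was at 22.0 and 18.5 FPKM in chow cytoplasm and 68.2 and 49.1 in DDC (1.48, adjusted p = 0.00126 by limma). On heavy polysomes Eif6 was at 254 and 183 against 461 and 468 (1.10, 0.00525). Znhit6, a box C/D assembly factor, was at 4.93 and 5.11 on chow heavy polysomes and 1.56 and 1.5 in DDC (-1.25, 0.00114). C1d, an exosome cofactor, was lower in cytoplasm (-1.47, 0.00306) and on heavy polysomes (-1.18, 0.0083).

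On heavy polysomes against monosomes in chow (background 23.7% higher and 21.1% lower), 21 of 50 further pre-60S factors were called higher and 6 lower, and 20 and 3 of 41 processome factors. Further RNA polymerase I factors gave 4 higher and 5 lower of 17 (median -0.37) and further pre-40S factors 1 and 1 of 11 (median -0.26). In DDC (background 18.2% and 14.5%) the counts were 23 and 0 for pre-60S, 16 and 0 for the processome, 4 and 1 for RNA polymerase I and 2 and 0 for pre-40S factors. Of 32 small-subunit ribosomal protein genes, which encode parts of the finished ribosome, in chow 0 were called higher and 24 lower on heavy polysomes (median -1.09), and in DDC 10 higher and 4 lower (median 0.65). The difference between the diets was called higher for 14 of them and lower for 0.

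Myc, the transcription factor known to act on many of these genes, was at 1.26 and 1.6 FPKM in chow cytoplasm and 7.13 and 7.89 in DDC. The difference was 1.81 (SE 0.44, adjusted p = 0.0124 by limma), and on heavy polysomes it was 1.02 and not called (0.115). On monosomes Myc was at 1.07 and 0.761 FPKM in chow against 9.45 and 3.95 in DDC. Light polysomes held 0.678 and 2.69 against 7.98 and 7.5, and heavy polysomes 1.3 and 3.95 against 5.11 and 6.68.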

How the data were processed

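Polyadenylated RNA of hepatocytes was sequenced from stranded libraries, 2 for each of 8 groups. Per the submitters' processing notes the authors used STAR 2.4.2a and Cuffnorm on GRCm38 (mm10), beside bcl2fastq 2.17.1.14, Picard 1.119 and Trimmomatic, with options and annotation release not given in the sources used here. The deposited values are FPKM per transcript, not whole numbers, although the table is named for counts, so a model for log values was used. Cuffnorm is a tool that scales between libraries, so depth in reads cannot be read from the values.

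GENCODE M21 gave each transcript its gene (116728 of 117592 matched, 99.27%, and 94.6% with the same version), and FPKM were summed per gene. The 864 unmatched held at most 0.509% of a library's FPKM. A gene was tested if 2 or more libraries reached 1 FPKM. Where both libraries of a group were at 0 and another library was at 100 FPKM or higher, the value was set to missing in that group (49 genes, 0 members). In R 4.3.3, limma 3.58.1 fitted the means of the 8 groups to log2(FPKM + 1) over the 16 libraries, with a variance trend on the mean (8 residual and 3.905 prior degrees of freedom). P-values were Benjamini-Hochberg adjusted over all genes, with calls under 0.05. Fractions of a preparation entered as independent. The model was tested on simulated data. Tables and figures used Python 3.11.15, pandas 2.3.3, numpy 2.4.6 and matplotlib 3.10.9.

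Of the 8 comparisons, 4 set DDC against chow within a pool, 2 set heavy polysomes against monosomes within a diet, and 2 tested whether heavy polysomes against monosomes, or against cytoplasm, differed between diets. Replicate numbers pair the fractions within a diet by preparation, per the labels, and not the diets. DDC fractions carry the codes B and C but DDC cytoplasm C2 and D2, so its pairing with them is unknown. Chow fraction libraries carry joined codes of 2 names, and whether animals were pooled is not stated. Deviations from group means correlated at 0.357 to 0.749 within chow, 0.305 to 0.365 among DDC fractions, -0.05 to 0.161 between DDC cytoplasm and DDC fractions, and -0.094 to 0.07 between diets.

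Genes described with the value in every library were the 12 members with the lowest p among those called between diets, 8 fixed members (Ncl, Npm1, Fbl, Nop56, Nop58, Dkc1, Nop10 and Polr1a) and the 3 smallest and 3 largest heavy against monosome differences in each diet. Other pathway genes were taken from lists by lowest p, and Myc was fixed. Members and lists were chosen with earlier results of these data known. The fit to the libraries of a single pool was added after seeing the data.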

Additional observations from a re-analysis of the deposited data

Results flagged for a closer look

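The heavy polysome against monosome difference of Npm1 was not the same in the diets by a test of the difference itself (2.21 on the log2 scale, SE 0.50, adjusted p = 0.0488 by limma). Levels were 66.3 and 49.2 FPKM on chow monosomes, 26.5 and 34.6 on chow heavy polysomes, 25.5 and 17.6 on DDC monosomes and 36.9 and 80.3 on DDC heavy polysomes, so that the order of the fractions turned between the diets. The call lay at the threshold and ended in 13 of 19 alternatives, among them a pseudocount of 0.5 (adjusted p = 0.0513) and leaving out chow preparation 1 (1.81, 0.265).

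The same test flagged Ddx18 (-2.88, SE 0.52, adjusted p = 0.0232 by limma). Levels were 1.87 and 0.445 FPKM on chow monosomes, 12.8 and 15.5 on chow heavy polysomes, 5.27 and 4.77 on DDC monosomes and 3.29 and 7.61 on DDC heavy polysomes. On protein-coding transcripts alone the difference was -1.15 (adjusted p = 0.184).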

How the results depend on the processing

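For each call in any of the 8 comparisons, and for the fixed members between diets, 1477 alternative values were computed. They include the calls of heavy polysomes against monosomes within a diet, so they do not describe the diet calls alone. In 1219 the direction and the side of the threshold were kept, 226 lost the call, 8 gained one and 24 changed sign. The cause was not tested except where a setting uses fewer samples. The number of libraries limits precision, since 1 library leaves a group with a single value. Shares of all genes called under each setting are not given here. Counts of members (higher then lower, or the side named) that moved were as follows. With a pseudocount of 0.1 or 0.5, without a filter, with equal summed FPKM or with quantile normalization, the diet difference of heavy polysomes against monosomes had 0 higher. Without a filter monosomes had 4 higher and heavy polysomes 1 higher. At 5 FPKM or more, heavy polysomes against monosomes had 2 lower in chow. Equal summed FPKM gave 7 higher in cytoplasm, 2 lower on monosomes, 5 and 1 on light and 6 and 1 on heavy polysomes, and 12 and 4 (chow) and 9 and 1 (DDC) for heavy polysomes against monosomes. Quantile normalization gave 1 higher on heavy polysomes, and 2 (chow) and 1 (DDC) lower for heavy polysomes against monosomes. Protein-coding transcripts alone gave 1 higher on heavy polysomes.

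With the preparation as a replicate block (a term for the 2 chow preparations over all chow libraries and one for the 2 DDC preparations over the DDC fractions, with DDC cytoplasm left unpaired), 2 members were higher on heavy polysomes and 2 lower in the diet difference of heavy polysomes against monosomes, and no other count of calls moved by over 1.5 times. Without the 4 chow libraries of preparation 1 counts were 0 and 0 in cytoplasm, 4 and 2 on monosomes, 0 and 1 on light polysomes, 0 lower on heavy polysomes, 12 and 0 for heavy polysomes against monosomes in chow, and 0 and 0 for its diet difference. Fits to a single pool, added after seeing the data, gave 1 and 1 on monosomes, 0 and 2 on light and 0 lower on heavy polysomes. Leaving out 1 library gave 1 to 2 higher and 0 to 1 lower in cytoplasm, 1 to 5 and 2 to 4 on monosomes, 0 to 1 and 1 to 3 on light and 1 to 2 and 2 to 4 on heavy polysomes. For heavy polysomes against monosomes it gave 16 to 19 and 0 to 1 in chow and 14 to 18 and 0 in DDC, for its diet difference 0 to 1 and 0 to 2, and for that against cytoplasm 0 and 0.

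Values that changed sign were those of uncalled differences, except Ddx18 on heavy polysomes (0.16 on protein-coding transcripts, where its retained-intron transcripts are left out). Dkc1 on light polysomes was -0.11 with a pseudocount of 0.1, -0.18 with quantile normalization, -0.51 on coding transcripts, -0.11 without preparation 1 or chow replicate 1, and -0.72 to 0.85 with 1 library left out (lowest without DDC replicate 1). Dkc1 was -0.10 in cytoplasm on coding transcripts, -0.20 to 0.97 on monosomes (lowest without chow replicate 2) and -1.03 to 0.24 on heavy polysomes (highest without DDC replicate 1) with 1 library left out. On heavy polysomes Ncl was 0.01 with equal sums and 0.32 on coding transcripts, and Fbl 0.28 with equal sums and 0.03 with quantile normalization. Fbl in cytoplasm ran from -0.01 (without DDC replicate 1) to 0.43. Nop56 on heavy polysomes was 0.15 with equal sums, 1.38 on coding transcripts, 0.06 without preparation 1, and -0.71 to 0.06 with 1 library left out (highest without chow replicate 1). On light polysomes Nop56 was -0.01 with quantile normalization, -0.09 without chow replicate 2, and -0.24 (without DDC replicate 2) to 0.38 over all libraries left out. Nop58 on monosomes was 1.21 on coding transcripts and ran from -0.76 to 0.16 (without DDC replicate 1). Shares of protein-coding transcripts are given per library and were not averaged, so leaving out a replicate was not run for them.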

Other observations

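Mrto4, a factor of early 60S assembly, was not called between the diets as a gene sum in any pool. On protein-coding transcripts alone it was called higher in DDC on monosomes (1.82, adjusted p = 0.00636 by limma), and its diet difference of heavy polysomes against monosomes was -2.99 (adjusted p = 0.0283). Gar1 on protein-coding transcripts alone was higher on heavy polysomes than on monosomes by 2.26 in chow (adjusted p = 0.000921 by limma) and 1.74 in DDC (0.00724). As a gene sum it differed by 0.38 and 0.63. Its coding levels were 1.96 and 0 FPKM on chow monosomes against 5.82 and 8.88 on chow heavy polysomes. In DDC they were 1.73 and 0.811 against 5.08 and 8.11. The chow difference thus takes in the 0 of chow monosome replicate 2, and the coding fit was not run without that library.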
